A study of Mus musculus with 6 samples.

Results

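The genes of the mouse mitochondrial genome were followed through 6 RNA-seq libraries of a mouse glioma model. They were found as every row of the deposited expression tables with a gene name that starts with mt-. This gave 12 of 46951 rows in the tumor table and the same 12 of 46952 rows in the table of cultured cells. The 12 rows name all 37 mitochondrial genes, which are 13 protein-coding genes, 2 ribosomal RNA (rRNA) genes and 22 transfer RNA (tRNA) genes. Only 9 rows hold a single gene. The other 3 rows join 28 genes in all, among them both rRNA genes and every coding gene except mt-Nd6, so no value exists for those genes one by one.

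The mice were of the C57BL/6 strain. They were young or old when mouse glioma-initiating cells (GICs), which are tumor cells able to start a new glioma, were placed in their brains, and tumors were taken once symptoms appeared. The 3 tumor libraries, of the cell line ms7080, are a young tumor, an old tumor, and a tumor of the group called NMN-before-Tumor, whose title marks it as old. The 3 GIC libraries, of the line 7080X1, come from cultures set up from such tumors and are named young, old NT and old preNMN. NMN is not spelled out in the labels. It usually stands for nicotinamide mononucleotide, a building block of NAD+. All 6 groups share the strain. Each group has 1 library, and so no difference below has a replicate check or a test. The labels give neither ages nor an NMN dose, nor how many mice a library stands for. A tumor piece holds host cells beside tumor cells, and fewer cells of a type cannot be told apart from less RNA per cell.

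Mitochondrial DNA is a small circular genome in many copies per cell. Its coding genes specify core subunits of the respiratory chain: the mt-Nd genes belong to complex I, which oxidizes NADH to NAD+, mt-Cytb to complex III, the mt-Co genes to complex IV (cytochrome c oxidase) and the mt-Atp genes to the ATP synthase. Both strands are transcribed into long RNAs that are cut apart, mostly where a tRNA lies between neighbors. The plus strand of the reference carries 28 of the genes. The minus strand carries 9, which are mt-Nd6 and 8 tRNAs. The rRNA and tRNA genes serve the translation of these few proteins inside the organelle.

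**Figure D1:**
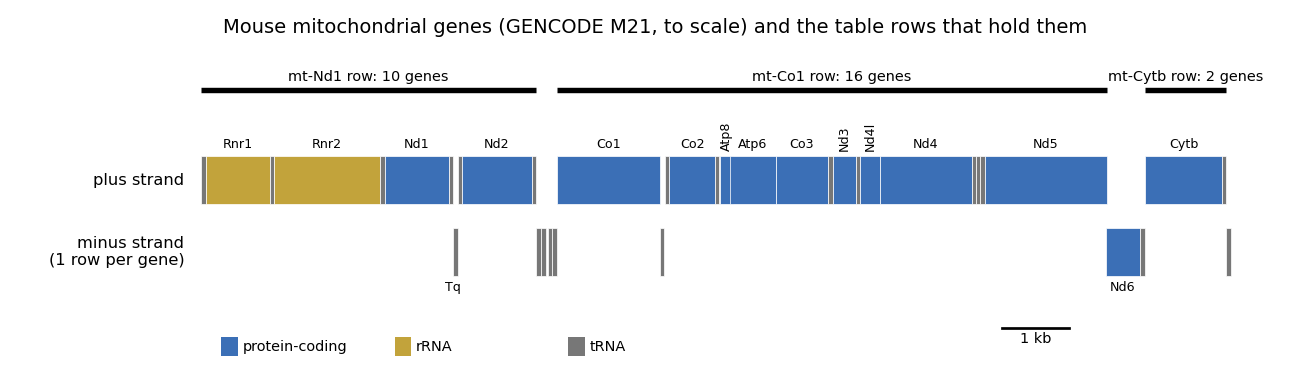
Map of the 37 mitochondrial genes to scale, plus strand above and minus strand below, colored by gene class; black bars span the 3 multi-gene rows of the expression tables. The bars hold 10, 16 and 2 plus-strand genes, while each of the 9 minus-strand genes has a row of its own.

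The first joined row, called the mt-Nd1 row here, has the locus chrM:1-5016 (GRCm38) in the files and holds mt-Nd1, mt-Nd2, the rRNA genes mt-Rnr1 and mt-Rnr2 and 6 tRNAs. The second, the mt-Co1 row, has the locus chrM:5328-14070, which the files also give for mt-Nd6 and mt-Ts1 inside it, with 9 coding genes (mt-Co1, mt-Co2, mt-Co3, mt-Atp6, mt-Atp8, mt-Nd3, mt-Nd4, mt-Nd4l and mt-Nd5) and 7 tRNAs. The third, the mt-Cytb row, has the locus chrM:14145-15355 and holds mt-Cytb and mt-Tt. Neighbors in these rows share bases, such as 43 bases of mt-Atp8 and mt-Atp6 and 7 bases of mt-Nd4l and mt-Nd4. The FPKM of such a row (fragments per kilobase of transcript, scaled to the depth of the library) is in Cufflinks output the sum over its transcripts, so rows with different numbers of genes cannot be ranked against each other. The mt-Nd6 gene (chrM:13552-14070, minus strand, 519 bases) overlaps the end of mt-Nd5 by 14 bases. The last 60 bases of both transcripts are shown, from GENCODE M21, because they mark where the only coding row of the minus strand meets the mt-Co1 row; capitals mark the shared bases, read on opposite strands.
mt-Nd6: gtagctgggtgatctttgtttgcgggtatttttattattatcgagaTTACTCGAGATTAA
mt-Nd5: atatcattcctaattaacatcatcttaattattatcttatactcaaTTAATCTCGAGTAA

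The tRNA genes are 59 to 75 bases long, while the mean fragment length estimated from the tables was 127 to 158 bases. Sequences are shown for the 4 tRNAs of 70 bases or more on which the values below turn, with the anticodon in capitals. They are mt-Tq (glutamine; chrM:3772-3842, minus strand), which has a row of its own, mt-Tl1 (leucine; chrM:2676-2750, plus strand) in the mt-Nd1 row, and mt-Td (aspartate; chrM:6942-7011, plus strand) and mt-Tl2 (leucine; chrM:11671-11741, plus strand) in the mt-Co1 row.
mt-Tq: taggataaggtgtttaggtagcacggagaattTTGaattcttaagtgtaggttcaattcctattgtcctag
mt-Tl1: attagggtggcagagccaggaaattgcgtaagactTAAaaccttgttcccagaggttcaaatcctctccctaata
mt-Td: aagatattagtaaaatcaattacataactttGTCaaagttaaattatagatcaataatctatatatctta
mt-Tl2: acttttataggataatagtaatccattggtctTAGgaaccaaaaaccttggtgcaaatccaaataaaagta

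Low FPKM values of long single-transcript rows could be turned into whole fragment numbers (tolerance 0.05) for 95.8% to 97.5% of them. The depth found this way was 11330000 to 18810000 fragments in tumors and 9700000 to 12690000 in GICs. Rows lying wholly inside an exon of an opposite-strand gene at 20 FPKM or more were used to see whether strands were kept apart. Of 29 to 39 such rows per library, 22 to 29 were listed at 0 and 1 reached at least 0.5 of the level of its partner. The median ratio was 0. A check of this kind can show only gross mixing of strands. The minus-strand row mt-Nd6 stood at 4.81 to 11.4 FPKM per 1000 FPKM of the mt-Cytb row, and leakage between strands of that size was not tested. The tissue label was checked with neuron markers, whose 15 rows summed to 374 to 746 FPKM in tumors. In GICs they summed to 107, 125 and 144 FPKM in the young, old and NMN-before cultures. Only 5 of the 15 reached 1 FPKM there, and the synaptic gene Snap25 was at 0.578 to 1.08 FPKM.

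The 4 rows with a coding gene took 2.97% of the summed FPKM in the young tumor, 3.69% in the old tumor and 3.99% in the NMN-before tumor. In GICs they took 3.31%, 2.92% and 3.24% in the same order. The young tumor was thus the lowest of the tumors, and the old culture the lowest of the cultures.

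The mt-Cytb row is the plainest measure of plus-strand mRNA, since its tRNA partner mt-Tt has 67 bases and no row of a single transcript under 70 bases was listed above 0 in any library. It was at 3986 FPKM in the young, 4763 in the old and 4996 in the NMN-before tumor. The young tumor was the low one, and the other tumors lay close together. The old tumor was 1.19-fold above the young tumor (95% interval 1.18 to 1.21) and the NMN-before tumor 1.05-fold above the old tumor (1.04 to 1.06). Between 37421 and 92762 fragments lay behind each value if all of them belonged to mt-Cytb, and the intervals cover counting error only, since reads without molecular identifiers are not independent molecules.

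In GICs the mt-Cytb row was at 4029 FPKM in the young, 3862 in the old and 5228 in the NMN-before culture. Here the NMN-before culture was the high one. It stood 1.35-fold above the old culture (1.34 to 1.37) and 1.30-fold above the young culture (1.28 to 1.31), while the old culture was at 0.959 of the young one (0.946 to 0.971).

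The mt-Nd1 row, which includes the rRNA genes, was at 3529, 5283 and 6135 FPKM in the young, old and NMN-before tumors. The young tumor stood well below the other tumors, with a ratio of 1.497 for old against young, of 1.16 for NMN-before against old and of 1.74 for NMN-before against young. Of the 76 other rows that reached 1000 FPKM in a tumor, all 76 had a smaller old-minus-young log2 difference than this row, and their median was -0.14. Of all 14335 rows with at least 1 FPKM in a tumor, 94.6% had a smaller difference. The mt-Nd1 row, at 0.58, was thus still below their 95th percentile of 0.61. In GICs the row was at 4489, 4365 and 3962 FPKM. There the NMN-before culture was the low one, at 0.908 of the old and 0.883 of the young culture. Libraries were made after rRNA depletion, and the kit's yield for mitochondrial rRNA cannot be read from a joined row.

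The mt-Co1 row, with most of the mRNA genes, had the narrowest relative span of the coding rows in tumors. It was at 8919, 9484 and 10686 FPKM in the young, old and NMN-before tumors and at 8029.65, 7042 and 7832 FPKM in the matching GICs. The ratios of old to young were 1.06 in tumors and 0.877 in GICs, and those of NMN-before to old were 1.13 and 1.11. Relative to the mt-Cytb row of the same library, the mt-Co1 row was at 2.24, 1.99 and 2.14 in tumors and at 1.99, 1.82 and 1.498 in GICs. The mt-Nd1 row was at 0.885, 1.11 and 1.23 of the mt-Cytb row in tumors, and at 1.11, 1.13 and 0.758 in GICs. The 3 plus-strand rows therefore did not keep 1 ratio across libraries, and the NMN-before culture had the lowest ratio of both rows to mt-Cytb.

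**Figure D2:**
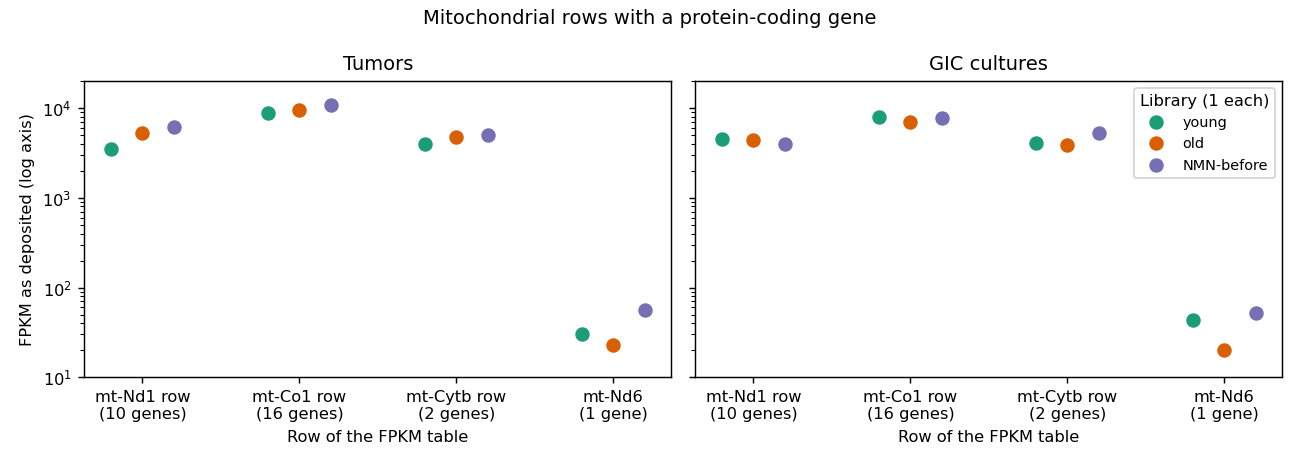
FPKM as deposited (log axis) of the 4 rows that hold a protein-coding mitochondrial gene, 1 point per library, in tumors (left) and GIC cultures (right). The old library has the lowest mt-Nd6 value in both panels, 22.9 and 20.4 FPKM, while it is in the middle for all 3 joined rows in tumors.

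The minus-strand gene mt-Nd6 (ENSMUSG00000064368.1), which encodes a membrane subunit of complex I, had a wider span from its lowest to its highest library than any joined row, in both tables. In tumors it was at 30.7 FPKM in the young, 22.9 in the old and 56.8 in the NMN-before library, from about 170, 96 and 386 fragments. In GICs it was at 43.9, 20.4 and 52.1 FPKM, from about 209, 74 and 199 fragments. The old library was the lowest and the NMN-before library the highest in both tables.

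NMN-before exceeded old 2.48-fold in tumors (95% counting interval 1.97 to 3.13) and 2.55-fold in GICs (1.95 to 3.38). The old tumor was at 0.747 of the young tumor (0.576 to 0.966), and the old culture at 0.464 of the young culture (0.351 to 0.608). NMN-before against young gave 1.85 in tumors (1.54 to 2.23) and 1.19 in GICs (0.972 to 1.45), the latter interval including equal levels. These comparisons share libraries within a table, and the old library enters 2 of the 3.

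Set against mt-Cytb of the same library, mt-Nd6 was at 7.71 per 1000 in the young tumor (95% interval 6.57 to 8.93), 4.81 in the old (3.89 to 5.87) and 11.4 in the NMN-before tumor (10.2 to 12.5). In GICs it was at 10.9 (9.47 to 12.5), 5.28 (4.15 to 6.63) and 9.97 (8.63 to 11.5). The old library was the lowest in both tables on this within-library ratio too. The 3 tumor intervals were separate, whereas those of the young and NMN-before cultures overlapped.

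**Figure D3:**
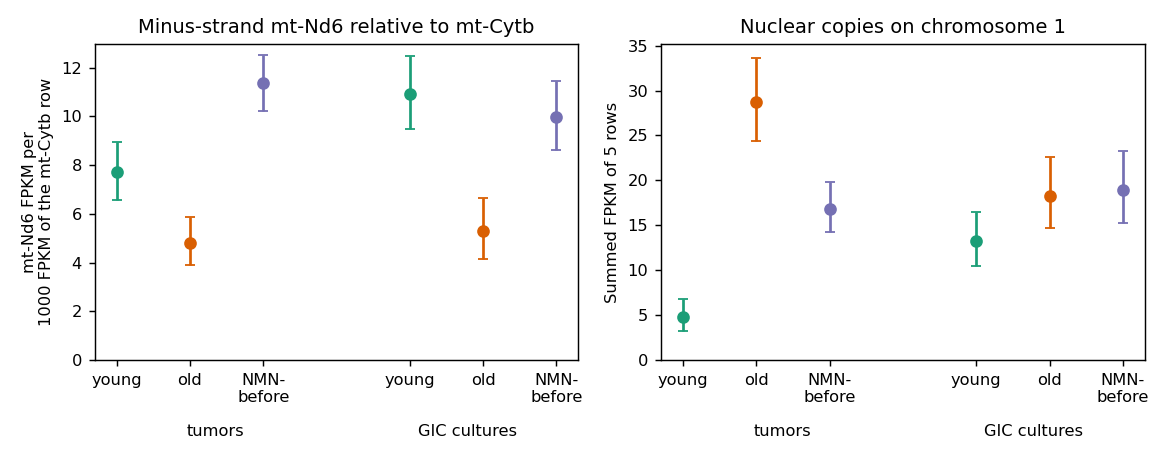
Left, mt-Nd6 FPKM per 1000 FPKM of the mt-Cytb row in each library; right, summed FPKM of 5 nuclear copies of mitochondrial genes on chromosome 1. Bars are 95% counting intervals. On the left the old libraries are lowest, at 4.81 and 5.28; on the right the young tumor is lowest, at 4.81 FPKM.

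By the rule of size used for counting, a log2 difference of FPKM plus 1 of at least 1 in size (2-fold), mt-Nd6 was the only coding row called in any comparison. Tested rows had at least 1 FPKM in 1 library of the table, which left 5 of the 12 member rows in tumors and 4 of 12 in GICs. The tRNA row mt-Tq passed this filter only through the old tumor and was listed at 0 in the other tumors, so its differences from the old tumor were bound to be large and are not read as calls. For old minus young tumors, 0 of the 4 coding rows were 2-fold higher, against 1.60% of all tested rows. For NMN-before minus old tumors, mt-Nd6 was 2-fold higher (log2 difference 1.27), where 1.86% of all rows were, and 0 of the 4 coding rows were 2-fold lower, where 1.25% were. For NMN-before minus young tumors, 0 of 4 coding rows were 2-fold apart in either direction (3.77% of all rows), with mt-Nd6 at 0.86 and the mt-Nd1 row at 0.80.

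In old minus young GICs, mt-Nd6 was 2-fold lower with a log2 difference of -1.07, where 1.58% of all rows were. In NMN-before minus old GICs, mt-Nd6 was 2-fold higher at 1.31, where 3.26% were. In NMN-before minus young GICs, 0 of 4 member rows were 2-fold apart in either direction (6.62% of all rows). The median log2 difference over the 4 coding rows was 0.17, 0.19 and 0.56 in tumors for old minus young, NMN-before minus old and NMN-before minus young. Over all tested rows it was -0.01, 0.01 and -0.01. In GICs the median over the coding rows was -0.13, 0.30 and 0.10, against 0.01, 0.00 and 0.00 over all rows. Medians over 4 rows rest on the 2 in the middle and hide that mt-Nd6 went the other way from the joined rows in old minus young tumors, at -0.41 against 0.09 to 0.58.

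**Figure D4:**
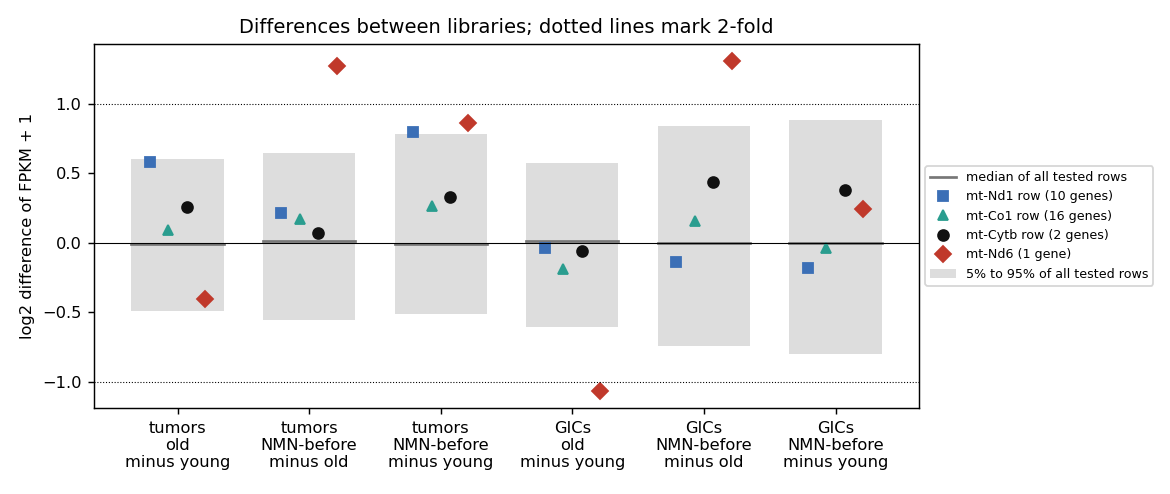
Log2 differences of FPKM plus 1 for the 4 coding rows in 6 comparisons; gray bars span the 5th to 95th percentile of all tested rows, gray lines their median, dotted lines 2-fold. In NMN-before minus old, mt-Nd6 lies above 2-fold in tumors (1.27) and GICs (1.31), while the joined rows lie between -0.14 and 0.44.

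Of the 8 tRNA rows, 7 were listed at 0 in all 6 libraries (mt-Ta, mt-Tn, mt-Tc, mt-Ty, mt-Ts1, mt-Te and mt-Tp). The asparagine tRNA mt-Tn was among them although it has 71 bases, as mt-Tq does. The row of mt-Tq, the glutamine tRNA shown above, had a value in the old tumor alone, of 743 FPKM, and was listed at 0 in the other 5 libraries. This is 1 library with a value, so no fold is given. Rows this short are weighed by a tiny effective length: 743 FPKM in the old tumor equals 1 fragment if the effective length was 0.119 base. Among other rows of 1 short transcript, Snord49b, a small nucleolar RNA of 72 bases, was listed at 457 FPKM in the young tumor, equal to 1 fragment at 0.145 base, and Snord82, with 70 bases, at 434 FPKM in the NMN-before culture. None of the 597 single-transcript rows under 70 bases was above 0 in either table, and 2 of the 207 rows of 70 to 75 bases were above 0 in each table.

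**Figure D5:**
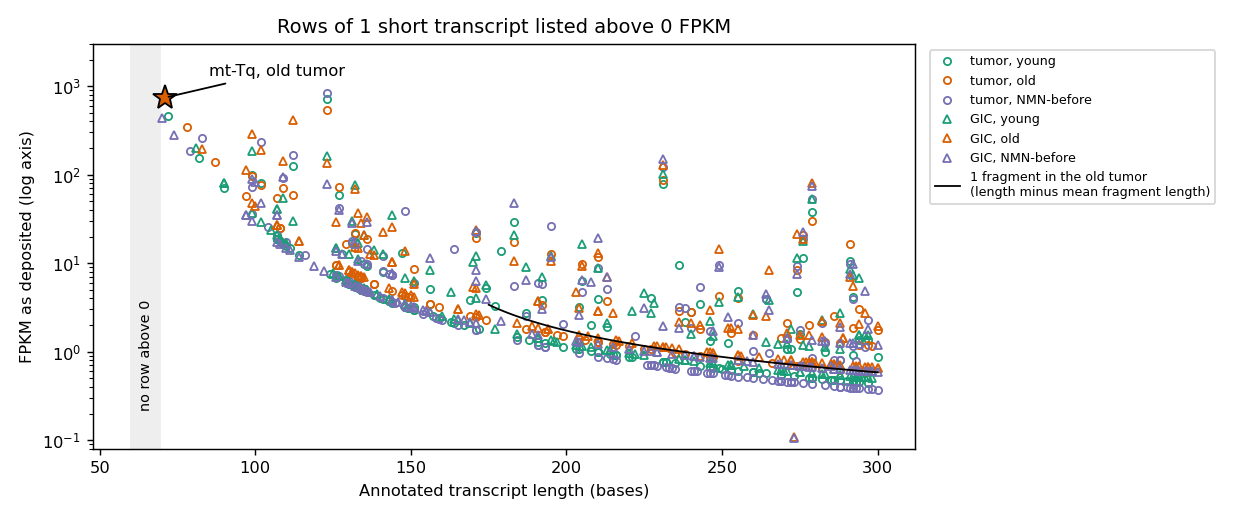
FPKM as deposited (log axis) against annotated length for rows of 1 transcript of up to 300 bases that were listed above 0; symbols show the table, colors the library, and the line is the value of 1 fragment in the old tumor. No row under 70 bases is above 0, and mt-Tq (star) is at 743 FPKM with 71 bases.

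This scale touches the joined rows as well. A single fragment inside mt-Tl1, mt-Td or mt-Tl2, the sequences shown above, could add as much to its row as one such row shows, and single short rows of 70 to 75 bases were listed at 283 to 743 FPKM. The gap between old and young tumors in the mt-Nd1 row was 1754 FPKM, and in the mt-Co1 row 566 FPKM. The part of such fragments in these gaps was not tested. The mt-Cytb row holds no tRNA of 70 bases or more. Small nuclear and nucleolar RNA rows showed a similar listing, with 64 of 93 at 0 in all tumors and 63 of 93 at 0 in all GICs.

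Nuclear copies of mitochondrial DNA can receive or give fragments of these genes. A block on chromosome 1 holds 6 annotated pseudogenes on the minus strand, from Gm28439 (chr1:24611535-24612410) to Gm29216 (chr1:24615706-24616197). They align to mt-Nd4, mt-Nd3, mt-Co3, mt-Atp6, mt-Co2 and mt-Co1, in that order, all of them members of the mt-Co1 row. For 5 of the 6 the aligned bases were identical to the mitochondrial gene, and Gm29216 had 1 mismatch to mt-Co1 in 483 aligned bases. The stretch with that mismatch, in capitals, is shown for chrM:6390-6509 (plus strand) and chr1:24616069-24616188 (minus strand), because a fragment that misses this base has no other base in the aligned part that tells its origin.
mt-Co1: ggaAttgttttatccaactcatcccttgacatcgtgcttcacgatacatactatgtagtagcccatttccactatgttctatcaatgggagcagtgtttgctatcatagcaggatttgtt
Gm29216: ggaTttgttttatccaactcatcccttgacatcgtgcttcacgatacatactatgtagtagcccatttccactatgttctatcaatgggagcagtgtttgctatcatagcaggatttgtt

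The copies had low values. Gm29216 was at 2.13, 8.76 and 5.24 FPKM in the young, old and NMN-before tumors and at 3.85, 5.35 and 7.59 FPKM in the matching GICs. Gm28437, the copy of mt-Co3, was at 0.209, 5.71 and 2.72 FPKM in tumors and 1.85, 2.75 and 3.92 FPKM in GICs. These copies are examples, named after their values were seen. In tumors the young library was the lowest for 6 of the 6 copies, and in GICs for 4 of 6. Of the others, Gm28438 was at 0.783 FPKM in the young culture and listed at 0 in the old and NMN-before cultures, and Gm10925 was lowest in the NMN-before culture, at 3.91 FPKM against 3.99 in the young one. The row of Gm28439 also names Gm10222 and was left out of the sums.

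The 5 other copies summed to 4.81 FPKM in the young, 28.7 in the old and 16.9 in the NMN-before tumor, from 31, 154 and 147 fragments. The summed FPKM of the old tumor was 5.98 times that of the young tumor. Counted as fragments per depth and summed effective length, which weighs long copies more, the fold was 6.58 (95% counting interval 4.45 to 10.02). All 5 rows were 2-fold higher by size, where 1.60% of all tested rows were. Gm28438 passed the filter of 1 FPKM only through the old tumor, so its difference is not read as a call. The 5 rows are neighbors in the same block and all copy genes of the mt-Co1 row. They are therefore not separate observations to set against that share. In GICs the sums were 13.3, 18.3 and 18.9 FPKM, a ratio of 1.38 for old against young, and the fold of fragments was 1.44 (1.05 to 1.98). All 28 values above 0 of these 5 rows came out as whole fragments within 0.05. The 6 rows with Gm28439 together amounted to 0.550 to 3.31 FPKM per 1000 FPKM of the mt-Co1 row. Whether these fragments arose from the nucleus or from mitochondria was not tested.

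Markers of other cells also differed between the tumors. Neuron markers summed to 374, 430 and 746 FPKM in the young, old and NMN-before tumors. The 3 joined rows rose in the same order, and so did the summed markers of mural (vessel wall) cells, at 54.9, 59.8 and 70.6 FPKM. Most mural rows did not share the first step: of 8 tested, 3 were higher and 5 lower in old than in young (median log2 difference -0.19). In NMN-before against old, 6 were higher and 2 lower. Summed astrocyte markers ran the opposite way, at 3384, 3053 and 2724 FPKM, as did summed oligodendrocyte precursor markers, at 1695, 1555 and 1492 FPKM. The astrocyte sum hides its members: 8 of 10 tested astrocyte rows were higher in old than in young (median log2 difference 0.22). In NMN-before against old, 2 of the 10 were higher and 8 lower. Of 10 tested precursor rows, 3 were higher and 7 lower in old than in young. The rows of 1 gene covered 15 of 16 neuron markers, none at 0, and 12 of the 15 were higher in old than young and 12 higher in NMN-before than old. Snap25 was at 78.0, 92.1 and 221 FPKM. Slc17a7, another neuron marker, was at 28.9, 23.9 and 90.8 FPKM, with the old tumor lowest. Microglia markers summed to 371, 542 and 490 FPKM and oligodendrocyte markers to 741, 624 and 493 FPKM. Of the 12 oligodendrocyte rows, 7 were higher and 5 lower in old than in young. Mitosis genes summed to 476, 372 and 477 FPKM, with the old tumor lowest as for mt-Nd6. In GICs, in the same order, neuron markers summed to 107, 125 and 144 FPKM, microglia markers to 10.99, 7.95 and 9.03 FPKM and mitosis genes to 706, 1017 and 908 FPKM. The part of these genes and cells in the mitochondrial differences was not tested in either table.

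Nuclear genes for the same respiratory complexes did not follow the joined rows in old minus young tumors. Of the complex I subunits in rows of 1 gene, 4 of 34 had higher values in old than in young and 30 had lower ones (median log2 difference -0.17). For complex III 2 of 9 were higher, for complex IV 1 of 10 and for the ATP synthase 2 of 13, with medians of -0.16, -0.18 and -0.17. Among all tested rows 48.3% were higher. Of the 76 non-mitochondrial rows that reached 1000 FPKM in a tumor, 17 were higher in old than in young, and their median was -0.14. Mitochondrial ribosomal protein genes, whose products form the ribosome around the mitochondrial rRNAs, were higher in 8 of 70 rows and lower in 62 (median -0.22). None of these subunit and ribosomal protein rows was 2-fold apart in old minus young tumors. Of all tested rows 1.60% were 2-fold higher there. The share that were 2-fold lower, the direction of most of these rows, is not given here. Cox4i2, a complex IV isoform known for its response to oxygen, was at 26.1, 14.7 and 8.77 FPKM in the young, old and NMN-before tumors. It was 2-fold lower in NMN-before than in young, where 3.77% of all tested rows were 2-fold apart in either direction.

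In NMN-before minus old tumors more of these genes were higher than lower: 24 of 34 for complex I, 5 of 9 for complex III, 7 of 10 for complex IV, 10 of 13 for the ATP synthase and 51 of 70 for ribosomal proteins. The medians were 0.08, 0.06, 0.17, 0.10 and 0.09, and 51.5% of all tested rows were higher. In old minus young GICs 26 of 34 complex I genes were higher (median 0.09), with 6 of 9 for complex III, 7 of 9 for complex IV, 9 of 13 for the ATP synthase and 50 of 70 for ribosomal proteins (0.11). The share of all tested rows was 51.5%, and the joined rows were at -0.19 to -0.04. In NMN-before minus old GICs 25 of 34 complex I genes were higher (0.24), but 4 of 9 for complex III, 4 of 9 for complex IV, 7 of 13 for the ATP synthase and 29 of 70 for ribosomal proteins (-0.08), against 49.4% of all tested rows. Ndufs7, a subunit of complex I, was at 37.5, 57.2 and 96.7 FPKM in young, old and NMN-before GICs.

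Other nuclear genes copy, transcribe and process mitochondrial DNA and RNA. Tfam, which packages mitochondrial DNA and starts its transcription, was at 32.1, 28.9 and 30.3 FPKM in the young, old and NMN-before tumors. Polrmt, the mitochondrial RNA polymerase, was at 15.7, 16.9 and 14.04 FPKM, and Lrpprc, which stabilizes mitochondrial mRNAs, at 16.6, 15.3 and 15.5 FPKM. Elac2 and Trmt10c, which take part in freeing tRNAs from the long transcripts, were at 49.7, 39.6 and 37.7 FPKM and at 10.1, 8.35 and 9.46 FPKM. None of the 9 transcription, 11 replication or 16 processing genes in rows of 1 gene was 2-fold apart in any of the 3 tumor comparisons. Few of all tested rows were either, 3.77% in NMN-before minus young, so a count of 0 does not set these genes apart.

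In GICs, Polrmt was at 12.4, 14.8 and 20.8 FPKM in young, old and NMN-before GICs. Mterf3, a transcription regulator of the organelle, was at 31.0, 29.1 and 15.6 FPKM. Tfam was at 44.6, 48.5 and 37.1 FPKM. Pnpt1, an RNA-degrading enzyme of mitochondria, was at 56.6, 66.5 and 36.8 FPKM, and Trmt10c at 20.3, 17.0 and 11.5 FPKM. Processing genes were higher in 3 and lower in 13 of 16 rows in NMN-before minus old GICs, with a median of -0.33 and 0 of them 2-fold apart. Among all tested rows 49.4% were higher and 3.26% were 2-fold higher. The share that were 2-fold lower is not given here, so a count of 0 does not set these genes apart.

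Among regulators of mitochondrial mass, Ppargc1a (PGC-1alpha, a coactivator of respiratory genes) was at 1.62, 2.28 and 5.72 FPKM in young, old and NMN-before GICs and at 2.98, 4.55 and 4.67 FPKM in the matching tumors. Of the 5 regulators in rows of 1 gene, Ppargc1a was the only 1 to be 2-fold higher in NMN-before minus old GICs, where 3.26% of all tested rows were. Of the 17 mitochondrial tRNA synthetases, which load the tRNAs with amino acids, 9 were higher and 8 lower in that comparison. Lars2, the synthetase for leucine, was at 56.8, 41.7 and 26.0 FPKM in young, old and NMN-before GICs. It was 2-fold lower in NMN-before than in young, a comparison in which 6.62% of all tested rows were 2-fold apart in either direction.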

How the data were processed

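RNA was measured in 3 tumors and 3 GIC cultures, 1 library per group. Per the labels' protocols, total RNA was depleted of rRNA, and stranded libraries were sequenced as read pairs. The submitters' processing notes name Cufflinks 2.2.1 beside Cuffdiff, the aligner STAR 2.5.4b, the trimmer Trim Galore 0.6.2, bcl2fastq 1.8.4 and the build GRCm38. Expression values were deposited by the authors as FPKM. There is 1 table for tumors and 1 for GICs, and comparisons stay within a table. Neither labels nor headers state the annotation, the scaling mode or how fragments with several mapping places were treated. The tables held 2 empty lines each, which were not analysed here. GENCODE M21, on GRCm38, supplied coordinates and transcript sequences, and all 37 mitochondrial genes matched by symbol. Differences are log2 of FPKM plus a pseudocount of 1, which understates changes of low rows, over rows with at least 1 FPKM in 1 library.

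Depth and mean fragment length were found as the pair of values that turns low FPKM values of single-transcript rows of 1500 to 12000 bases into whole fragments, and the search was tested on simulated data. Intervals are 95% Poisson or exact Clopper-Pearson intervals on these fragments. Nuclear copies were aligned with Biopython 1.88, and other steps used Python 3.11.15, pandas 2.3.3 and scipy 1.17.1. The members, gene lists and comparisons were chosen with earlier results of these data known. All mitochondrial rows are named; of each nuclear list, the fixed genes and the 2 highest and 2 lowest differences could be named. Alternatives were pseudocounts of 0.1 and 0.5, filters, 3 rescalings and row classes. Protein sequences were not used here.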

Additional observations from a re-analysis of the deposited data

Results flagged for a closer look

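Some coding rows lay in opposite directions in tumors and GICs under the same contrast. With 1 library per group this difference between tumors and GICs was not tested. For the mt-Nd1 row the tumor log2 difference exceeded that of GICs by 0.62 in old minus young, by 0.36 in NMN-before minus old and by 0.98 in NMN-before minus young. For the mt-Co1 row the gap was 0.28 in old minus young and 0.30 in NMN-before minus young. For the mt-Cytb row it was 0.32 in old minus young. No contrast of mt-Nd6 changed sign between tumors and GICs.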

How the results depend on the processing

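No paired analysis was possible because each group has 1 library. Median log2 differences over the coding rows are given in the order tumors old minus young, NMN-before minus old, NMN-before minus young, then GICs likewise. Rescaled to TPM over all rows, they were 0.24, 0.14 and 0.58 in tumors, and -0.19 and 0.031 in the first and last GIC comparison. Over rows that are not mitochondrial the TPM values were 0.25, 0.15, 0.59, -0.19 and 0.030. The median of ratios gave 0.19 in old minus young tumors. The only single-gene coding row, mt-Nd6, gave -0.41, a reversed sign, then 1.27, 0.86, -1.07, 1.31 and 0.24. Without the row that holds the rRNA genes, chosen after seeing the data, the medians were 0.089, 0.17, 0.33, -0.19, 0.44 and 0.24. Shares of summed FPKM over protein-coding rows only were 3.08%, 3.84%, 4.14%, 3.43%, 3.03% and 3.35%. For mt-Nd6 alone they were 0.00553%, 0.00433%, 0.0103%, 0.00876%, 0.00390% and 0.00988%. Counts of member rows 2-fold apart, mt-Tq included, stayed within 1.5 times under all 8 alternatives, and mt-Nd6 kept its direction under the 5 pseudocounts and scalings tried. Depth limits mt-Nd6, with 74 to 386 fragments, more than the joined rows, and a tRNA row at 0 says nothing of the tRNA's level.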
